A study of Mus musculus with 20 samples.

Results

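The vacuolar ATPase (V-ATPase) is the rotary proton pump that acidifies lysosomes, endosomes and, at the ruffled border of the osteoclast, the resorption pit under the cell. Its V1 sector hydrolyses ATP in the cytoplasm and its V0 sector carries protons across the membrane. Several subunits exist as isoforms: subunit a3 (Tcirg1) and subunit d2 (Atp6v0d2) are enriched in osteoclasts, whereas most other subunits are made in nearly every cell. Acid secretion by osteoclasts further needs carbonic anhydrase II (Car2) to supply protons, the chloride-proton exchanger Clcn7 with its partner Ostm1, the chloride-bicarbonate exchanger Slc4a2, and the trafficking proteins Snx10 and Plekhm1. Loss of Tcirg1, Clcn7, Ostm1, Car2, Snx10 or Plekhm1 is known to cause osteopetrosis, in which bone is made but not resorbed.

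The 30 members were taken by symbol from the 54446 genes of the expression table: 2 osteoclast-rich subunits, 6 acid-secretion partners, 6 ubiquitous V0 subunits, 8 ubiquitous V1 subunits, 6 tissue-restricted subunits and 2 accessory subunits. RNA-seq was performed on whole tibiae of 3-month-old male C57BL/6J mice, in 4 groups of 5 libraries. Mice received vehicle or the glucocorticoid dexamethasone (DEX, 1 mg/kg subcutaneously for 5 days), and the left tibia was loaded axially on days 1 and 3 (-13 N, 40 cycles per session) while the right tibia was not loaded. These days are those of the sample labels, whereas the study describes a further session, the last one on the day the tibiae were frozen. The groups were thus unloaded vehicle, loaded vehicle, unloaded DEX and loaded DEX, and both tibiae of a mouse could enter a loading comparison. The comparisons asked how loading changed these genes under either treatment, how DEX changed them in either tibia, and whether the response to loading differed between treatments. Levels are given as CPM, the counts scaled to library size, after TMM normalization of all 20 libraries, and n = 5 libraries per group throughout. Values by library are in the order 1, 2, 4, 5 and unnumbered for vehicle groups and 1 to 5 for DEX groups. Each group entered 2 of the 4 pairwise comparisons, so these comparisons were not independent.

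Library totals ran from 4641437 to 13032018 counts. Loaded DEX library 4 stood apart: it had the lowest total, and its median Spearman correlation with the rest of its group was 0.886, against 0.946 to 0.974 for the other libraries. It also had the most reads on 1965 olfactory and vomeronasal receptor genes, which bone is not known to use (8885 CPM summed). This receptor background ran from 346 to 1276 CPM in unloaded vehicle, 232 to 913 in loaded vehicle, 811 to 3257 in unloaded DEX and 1092 to 8885 in loaded DEX libraries. The study left out a DEX dataset bearing the number of this library as an outlier. Which tibia it was is not given in the text used here, so every library was kept here. Results that changed without both DEX libraries 4 are given beside the main ones or in the closing section on processing. The tissue was whole bone, so fewer cells of a type and less RNA per cell cannot be told apart. All 12 osteoclast markers were detected in every group, and their summed level was 932 to 1470 CPM in unloaded vehicle, 1700 to 2190 in loaded vehicle, 1360 to 2000 in unloaded DEX and 971 to 1950 in loaded DEX libraries.

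Between genes, levels were compared per kilobase of exon. Car2 was the most abundant member at 181.5 CPM per kb over the 20 libraries, and the 12 markers of erythroid cells, which are rich in this enzyme too, summed to between 4050 and 12400 CPM. None of these 12 markers passed in any comparison (edgeR adjusted p, 0 at an unadjusted p under 0.05). The next members were Atp6v1g1 (49.55 CPM per kb), a stator subunit of V1, and Atp6v0c (41.5), which forms the proton-carrying ring. Both osteoclast-rich subunits lay among the ubiquitous ones, with Tcirg1 at 19.96 and Atp6v0d2 at 17.4 CPM per kb, next to Atp6v0d1 at 21.4 and Atp6v0a1 at 17.4. The 6 tissue-restricted subunits, known from kidney, epididymis, inner ear or neurons, were the 6 lowest members, from 0.123 CPM per kb (Atp6v1g3) to 1.47 (Atp6v1g2). Atp6v1g3 had 3 counts or fewer in 18 of 20 libraries and Atp6v1c2 in 10, and neither passed the filter on low counts in any comparison. Atp6v1b1, with 2 to 26 counts per library, passed it only for loading under DEX and for the interaction. 

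**Figure D1:**
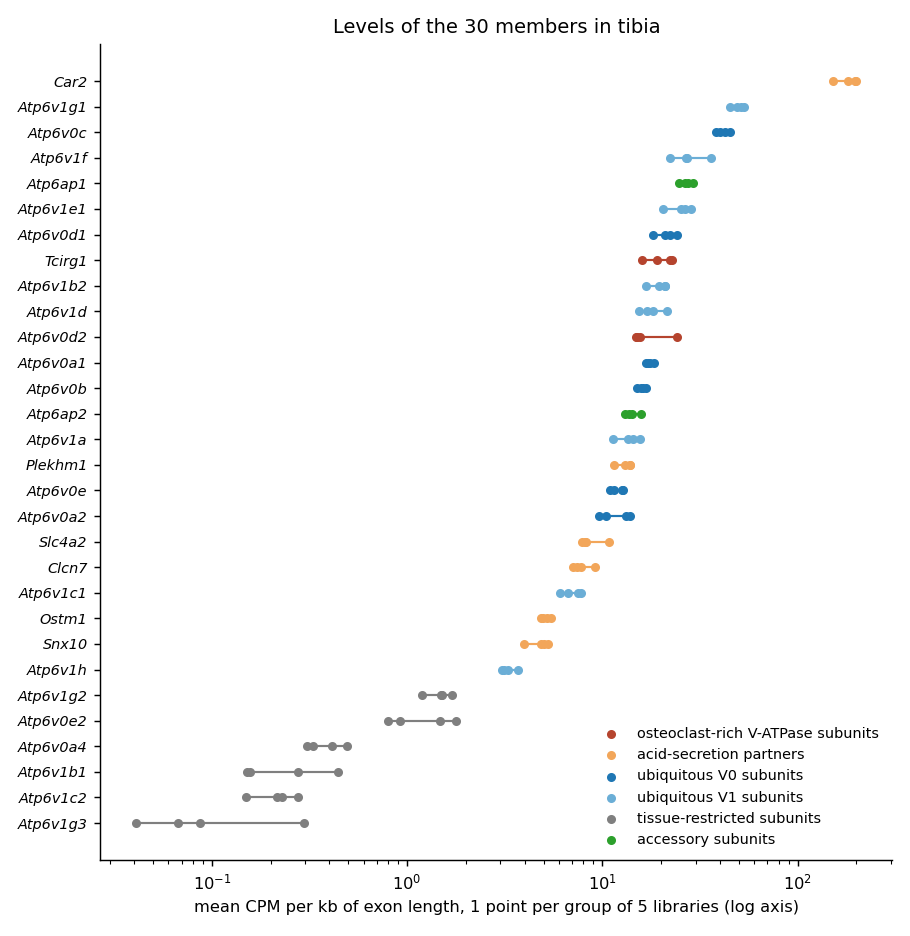
Mean CPM per kilobase of exon length for each of the 30 members (log axis), with 1 point for each group of 5 libraries, coloured by member group. The 6 tissue-restricted subunits lie below all the others, and Tcirg1 and Atp6v0d2 lie within the range of the ubiquitous subunits.

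Within a subunit with several isoforms, shares were computed per kilobase in each library. Tcirg1 made up 33.2% ± 7.18 (SD) of the subunit a signal in unloaded vehicle tibiae, 41.9% ± 2.96 in loaded vehicle, 44.3% ± 4.44 in unloaded DEX and 40.8% ± 6.06 in loaded DEX tibiae. Atp6v0a2, an isoform linked to the Golgi and endosomes, made up 28.4% ± 2.61, 24.9% ± 2.21, 20.6% ± 2.05 and 21.1% ± 0.844 in the same order, and Atp6v0a1 made up nearly all of the rest. Atp6v0d2 made up 42.5% ± 6.86, 51.2% ± 7.79, 38.5% ± 3.83 and 45.2% ± 2.89 of the subunit d signal. The share of Atp6v0d2 thus had its highest mean in loaded vehicle tibiae and that of Tcirg1 its lowest in unloaded vehicle tibiae, whose ranges overlapped with those of all other groups for Tcirg1 and, for Atp6v0d2, with those of unloaded vehicle (33.4% to 49.1%) and loaded DEX (41.5% to 48.4%) but not of unloaded DEX tibiae (34.4% to 44.5%). Of subunit e, Atp6v0e2 made up 12.5% ± 4.77, 6.58% ± 0.815, 6.82% ± 0.844 and 12.2% ± 2.49, and Atp6v0e the rest. For the V1 subunits B, C and G, 1 isoform gave nearly all of the signal: Atp6v1b2, Atp6v1c1 and Atp6v1g1 each averaged between 96.1% and 99.2% in every group.

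**Figure D2:**
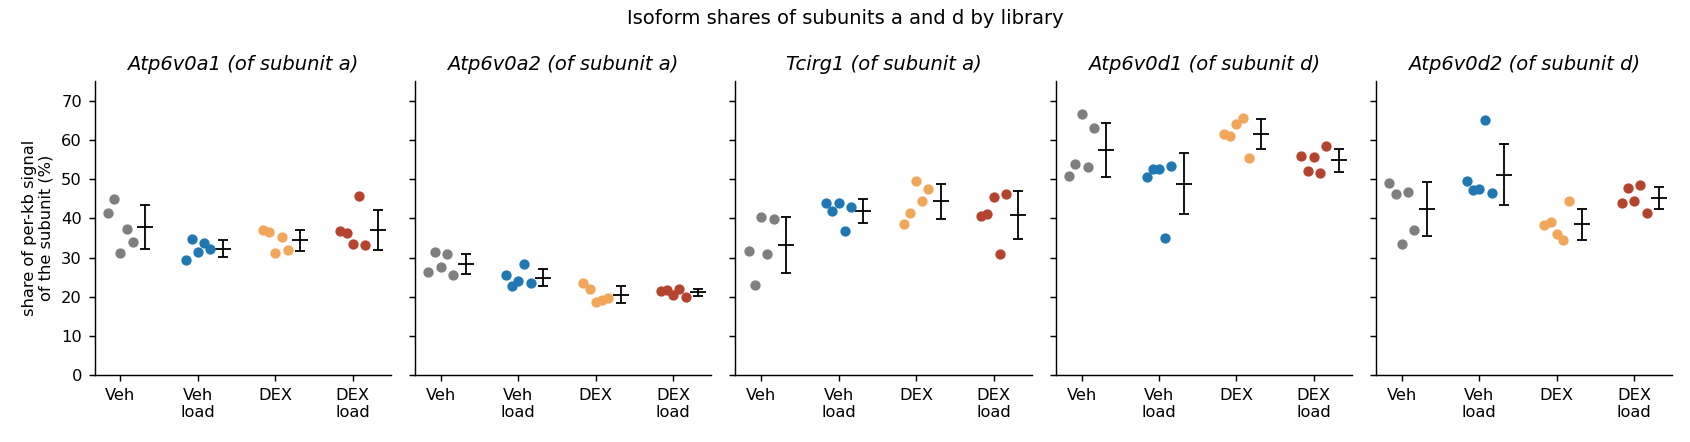
Share (%) of the per-kilobase signal of subunit a held by Atp6v0a1, Atp6v0a2 and Tcirg1, and of subunit d held by Atp6v0d1 and Atp6v0d2, with 1 point per library and the mean ± SD beside each group of 5. Atp6v0a2 averaged 28.4% in unloaded vehicle and 20.6% in unloaded DEX tibiae, and loaded vehicle library 5 had the highest share of Atp6v0d2.

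The isoform balance was tested on the log2 ratio of the counts of the osteoclast-rich isoform to its ubiquitous counterpart. For Atp6v0d2 over Atp6v0d1 the log2 ratio was 0.546, 0.372, -0.396, 0.415 and -0.165 in unloaded vehicle libraries and 0.571, 0.44, 0.449, 1.49 and 0.403 in loaded vehicle libraries. The highest value was that of loaded vehicle library 5, and the groups overlapped. The means were 0.154 ± 0.41 and 0.67 ± 0.461 (SD, two-sided exact permutation test, p = 0.0952, adjusted p = 0.152 over 8 tests). Under DEX the means were -0.0819 ± 0.231 without and 0.32 ± 0.168 with loading (exact permutation test, p = 0.0317, adjusted p = 0.152). For Tcirg1 over Atp6v0a1 the mean was -0.711 ± 0.531 in unloaded and -0.136 ± 0.18 in loaded vehicle tibiae (exact permutation test, p = 0.0476, adjusted p = 0.152). It was -0.146 ± 0.254 in unloaded and -0.374 ± 0.417 in loaded DEX tibiae (exact permutation test, p = 0.357, adjusted p = 0.357). With DEX, the differences of Atp6v0d2 over Atp6v0d1 were -0.24 in unloaded and -0.35 in loaded tibiae, and those of Tcirg1 over Atp6v0a1 were 0.57 and -0.24 (exact permutation tests, adjusted p = 0.357, 0.152, 0.152 and 0.357). None of the 8 ratio tests passed an adjusted p of 0.05, and the smallest p this design allows, 0.00794, would have given a single ratio an adjusted p of 0.0635.

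Loading under vehicle gave positive log2 fold changes for both osteoclast-rich subunits and all 6 partners, from 0.00018 for Car2 to 0.62 for Atp6v0d2. With 1 library left out, those of Car2 (-0.0615 to 0.146) and Ostm1 (-0.0731 to 0.129) could turn negative. No member passed an adjusted p of 0.05 in edgeR's quasi-likelihood test (background 0.0% of 17982 genes tested). DESeq2's Wald test passed 1 member, Atp6v1a. The background just given is edgeR's, and that of DESeq2 is not given here. The study itself reported differential genes for loading under vehicle with DESeq2. At an unadjusted p under 0.05, 9 of 27 tested members were higher (background 3.9% of genes) and 1 was lower (background 5.96%). The 9 held 6 of the 8 osteoclast-rich subunits and partners, and 2 of the 14 ubiquitous subunits. The median log2 fold change was 0.27 for those 8 genes and -0.02 for the 14 ubiquitous subunits, against -0.0021 over all genes tested. Of the 12 osteoclast markers, 10 were higher at an unadjusted p under 0.05 in the same comparison, with a median of 0.60, and cathepsin K (Ctsk) differed by 0.96 ± 0.165 (SE, adjusted p = 0.123). All 10 macrophage markers were positive too, with a median of 0.32 and 4 at an unadjusted p under 0.05, and 17 of 20 lysosomal genes were positive, with a median of 0.14 and 3 at an unadjusted p under 0.05. By contrast, all 8 skeletal muscle markers were negative (median -1.08, 2 at an unadjusted p under 0.05), as were 8 of 9 osteoblast markers (median -0.24, 4 at an unadjusted p under 0.05). The part of the number of cells of these types in the members' values was not tested.

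Atp6v0d2, which is also needed for the fusion of osteoclast precursors, measured 50.8, 38.2, 31.7, 47.8 and 41.6 CPM in unloaded vehicle libraries and 60.7, 56.0, 56.4, 102.0 and 53.0 CPM in loaded vehicle libraries. Every loaded library lay above every unloaded one, and library 5 was far above the rest. The groups did not overlap for 4 of 27 tested members (background 1.33% of genes), of which Atp6v0d2, Slc4a2 and Atp6v1a were higher and Atp6v0e2 was lower with loading. The log2 fold change was 0.62 ± 0.204 (SE, edgeR adjusted p = 0.397), and without loaded vehicle library 5 it was 0.40. Tcirg1, the a3 subunit that targets the pump to the ruffled border, measured 70.9, 55.8, 88.3, 63.2 and 90.7 CPM in unloaded vehicle libraries and 115, 103, 102, 85.9 and 105 CPM in loaded vehicle libraries. Only loaded library 5 fell within the unloaded range, and the log2 fold change was 0.44 ± 0.126 (edgeR adjusted p = 0.328).

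Among the partners, Slc4a2, which exports bicarbonate in exchange for chloride, had no overlap between the groups. It measured 58.5, 60.7, 75.5, 55.0 and 76.6 CPM in unloaded and 107, 81.4, 79.7, 81.1 and 99.7 CPM in loaded vehicle libraries. Its log2 fold change was 0.43 ± 0.119 (edgeR adjusted p = 0.316), and 1141 of its 8322 exon bases are shared with Fastk on the other strand, whose reads may enter the count. Clcn7, Snx10 and Plekhm1 had log2 fold changes of 0.28 ± 0.116, 0.26 ± 0.105 and 0.24 ± 0.0933, and all of them overlapped between the groups (edgeR adjusted p = 0.475, 0.475 and 0.453). Car2 ran from 405 to 557 CPM in unloaded and from 295 to 566 CPM in loaded vehicle tibiae, and Ostm1 from 31.8 to 38.3 and from 31.7 to 51.0 CPM. Neither gene reached an unadjusted p of 0.05 in any of the 5 comparisons.

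**Figure D3:**
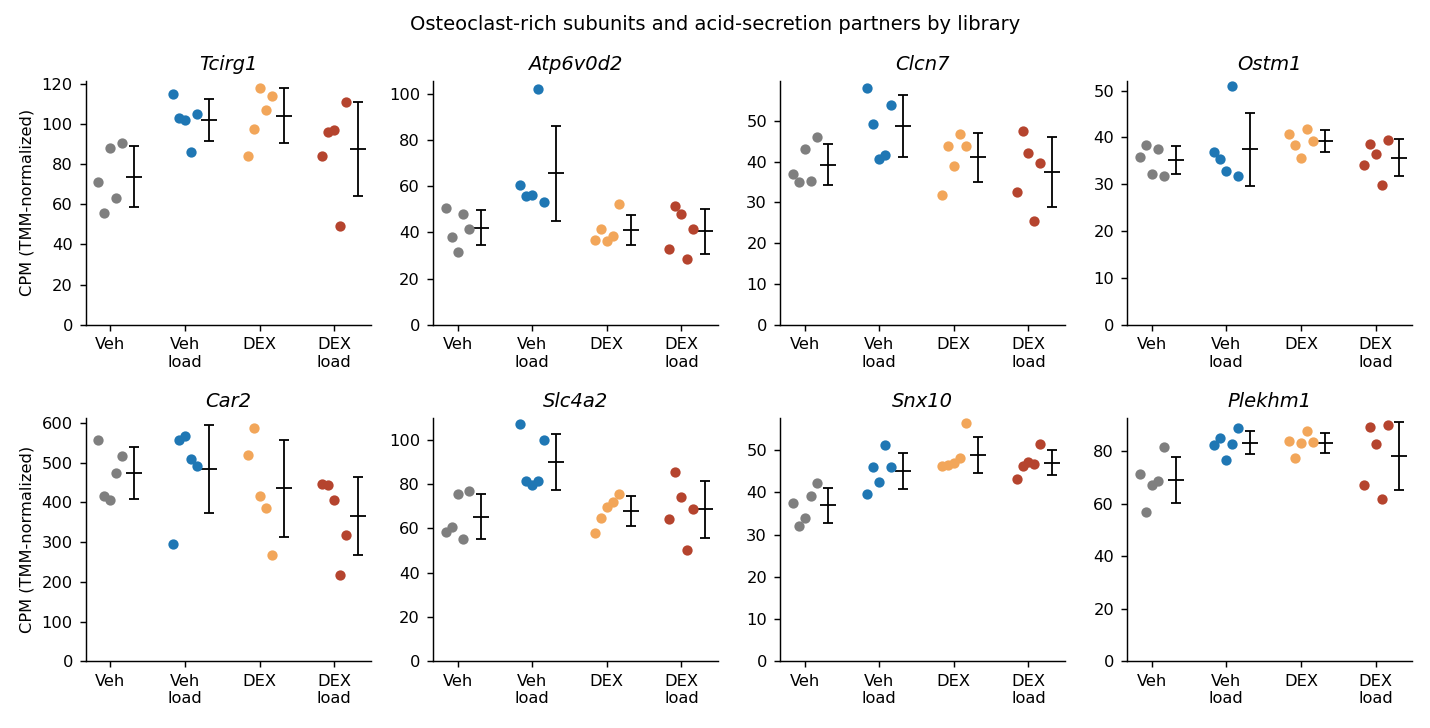
CPM of Tcirg1, Atp6v0d2 and the 6 acid-secretion partners, with 1 point per library and the mean ± SD beside each group of 5. Loaded vehicle libraries of Atp6v0d2 (53.0 to 102.0 CPM) and Slc4a2 (79.7 to 107 CPM) lie above all unloaded vehicle libraries, and Snx10 lies between 43.2 and 56.4 CPM in all DEX libraries.

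The lowest p among members for loading under vehicle was that of Atp6v1a, the catalytic subunit that binds ATP. It measured 67.8, 60.2, 73.4, 66.1 and 76.0 CPM in unloaded and 101, 82.8, 93.1, 106 and 87.4 CPM in loaded vehicle libraries, with no overlap. The log2 fold change was 0.43 ± 0.0995 (edgeR adjusted p = 0.229, 0.0193 to 0.505 over the alternatives tried). For the ubiquitous isoforms set against the osteoclast-rich ones, Atp6v0d1 ran from 29.5 to 46.7 CPM in unloaded and from 36.5 to 41.3 CPM in loaded vehicle tibiae, and Atp6v0a1 from 97.0 to 154 and from 104 to 122 CPM, with overlap. Atp6v1c1, which links the stators to the motor, differed by 0.33 ± 0.121 (edgeR adjusted p = 0.435). Among the ubiquitous V1 subunits, A, B2, C1 and H had positive and D, E1, F and G1 negative log2 fold changes. Only A and C1 had an unadjusted p under 0.05 (edgeR), and differences between subunits were not tested. In unloaded vehicle libraries 1, 2 and 5, Atp6v1f measured 37.3, 66.8 and 44.3 CPM, against 23.5 and 19.6 CPM in the other two. The same 3 libraries held the highest values of their group for Atp6v1d and Atp6v1e1, and also its highest receptor background (786 to 1276 CPM), whose part in these values was not tested.

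Loading under DEX changed no member past the threshold (edgeR's quasi-likelihood test, 0 of 28 tested, background 0.0% of 21499 genes), and DESeq2 also passed 0. The 8 osteoclast-rich subunits and partners all had negative log2 fold changes, between -0.27 and -0.0070, with a median of -0.13 against 0.016 over all genes. That of Slc4a2 ran from -0.111 to 0.095 with 1 library left out, and that of Atp6v0d2 also turned sign, as given below. The median of the 14 ubiquitous subunits was -0.09, and 9 of them were negative. Negative values were common in other lists too: they were found for all 12 erythroid markers (median -0.20), all 9 osteoblast markers (-0.44), all 10 genes of V-ATPase assembly (-0.16), 9 of 10 macrophage markers (-0.23) and 18 of 20 lysosomal genes (-0.13). Of the 12 osteoclast markers 8 were negative (median -0.14), whereas all 8 skeletal muscle markers were positive (median 1.41, 5 at an unadjusted p under 0.05). Tcirg1 measured 84.1, 97.3, 118, 107 and 114 CPM in unloaded and 83.9, 96.0, 97.0, 49.4 and 111 CPM in loaded DEX libraries. The lowest value was that of loaded DEX library 4, and the log2 fold change was -0.27 ± 0.212 (edgeR adjusted p = 0.599). With 1 library left out, the fold change of Tcirg1 ran from -0.399 to -0.111. Atp6v0d2 measured 36.9, 41.7, 36.1, 38.3 and 52.2 CPM in unloaded and 32.7, 51.5, 47.9, 28.7 and 41.7 CPM in loaded DEX libraries. Its log2 fold change was -0.03 ± 0.184, and its sign turned without unloaded DEX library 5 (0.0721), loaded DEX library 1 (0.0363) or loaded DEX library 4 (0.0756). At an unadjusted p under 0.05 only Atp6v0d1 was lower among the members tested (-0.41 ± 0.186, edgeR adjusted p = 0.593; background 0.981% of genes), and only Atp6v0e2 was higher (background 6.16%). The groups of Atp6v0e2, 1 of 28 tested members, did not overlap (background 0.963% of genes).

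The response to loading was then compared between treatments by the interaction of treatment and loading, fitted on all 20 libraries. No member passed an adjusted p of 0.05 (edgeR, 0 of 28 tested, background 0.0% of 22659 genes), and DESeq2 passed 1, Atp6v0e2. The share of all genes that DESeq2 passed is not given here. In edgeR Atp6v0e2 also passed without the unnumbered unloaded vehicle library or without unloaded DEX library 5. At an unadjusted p under 0.05, 8 members had a lower response under DEX (background 5.08% of genes) and 1, Atp6v0e2, had a higher one (background 10.5%). The 8 were Tcirg1, Atp6v0d2, Slc4a2, Snx10, Plekhm1, Atp6v0d1, Atp6v1a and Atp6v1c1. The difference of log2 fold changes was -0.72 ± 0.246 for Tcirg1 (edgeR adjusted p = 0.237) and -0.66 ± 0.269 for Atp6v0d2 (adjusted p = 0.288). For the other 6 it lay between -0.53 and -0.35. All 8 osteoclast-rich subunits and partners had a negative difference, with a median of -0.40, against -0.08 for the 14 ubiquitous subunits and 0.06 for all genes. All 12 osteoclast markers were negative too, with a median of -0.73, and 6 of them had an unadjusted p under 0.05. So were all 10 macrophage markers, with a median of -0.54 and 4 at an unadjusted p under 0.05, and 16 of 20 lysosomal genes, with a median of -0.28 and 6 at an unadjusted p under 0.05. All 8 skeletal muscle markers were positive, with a median of 2.545, and all 8 had an unadjusted p under 0.05. The part of these cell types in the members' values was not tested.

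**Figure D4:**
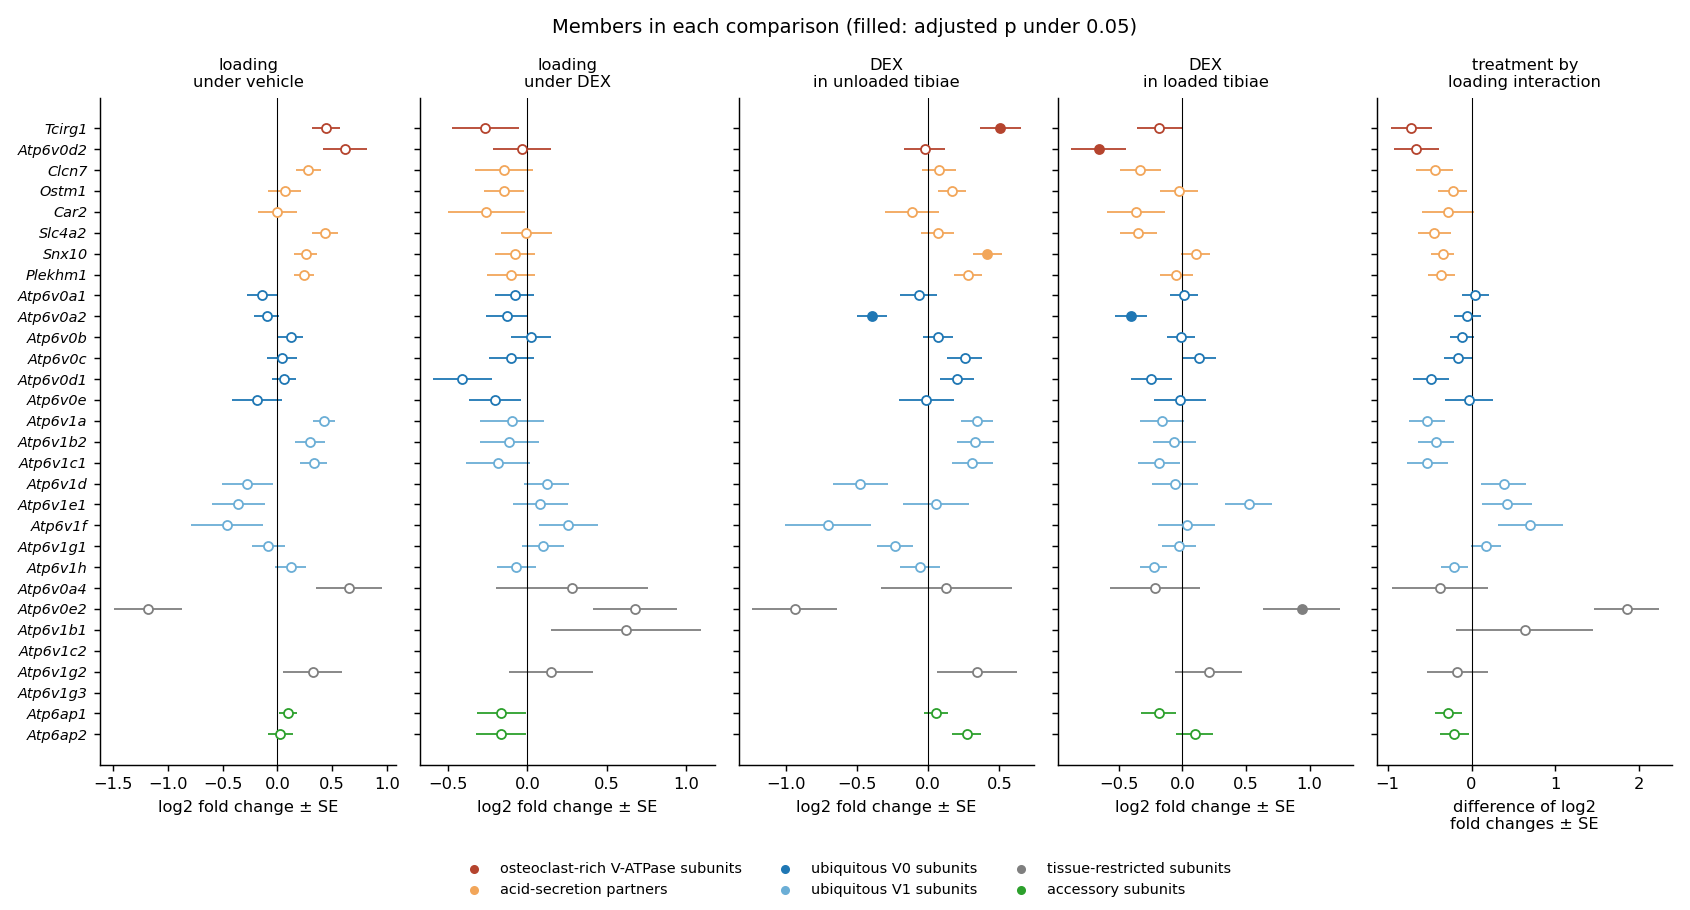
Log2 fold change ± SE of each tested member in the 4 comparisons, and the difference of log2 fold changes for the interaction, grouped by member group; filled points have an adjusted p under 0.05, and each panel has its own scale. The 6 filled points are Tcirg1, Snx10 and Atp6v0a2 for DEX in unloaded tibiae and Atp6v0d2, Atp6v0a2 and Atp6v0e2 for DEX in loaded tibiae.

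In unloaded tibiae, DEX changed 3 of 27 tested members (11.1%) in edgeR's quasi-likelihood test (background 15.2% of 19271 genes): Tcirg1 and Snx10 rose and Atp6v0a2 fell. The members' share was below that of all genes. Tcirg1, with the values given above, rose by 0.51 ± 0.142 on the log2 scale (edgeR adjusted p = 0.0322), and only unloaded DEX library 1 lay within the vehicle range. Snx10, a sorting nexin of endosomes, measured 37.4, 32.1, 33.8, 39.0 and 42.3 CPM in vehicle and 46.3, 46.5, 46.9, 48.2 and 56.4 CPM in DEX libraries. All DEX libraries lay above all vehicle libraries, and the rise was 0.41 ± 0.101 (edgeR adjusted p = 0.0179). Plekhm1, which tethers lysosomes before fusion, had a log2 fold change of 0.28 ± 0.0985 (edgeR adjusted p = 0.073). Atp6v0d2 had a log2 fold change of -0.03 ± 0.144 (edgeR adjusted p = 0.921), whose sign turned without vehicle library 1 (0.0528) or 5 (0.0321) or DEX library 1 (0.00466), 3 (0.0127) or 4 (0.0135). Beside these values, all 12 osteoclast markers had positive log2 fold changes in the same comparison, with a median of 0.37, and 6 of them had an unadjusted p under 0.05 (background 13.7% of genes, higher). Of these markers Mmp9, a matrix protease that neutrophils make too, rose, by 0.97 ± 0.195 (edgeR adjusted p = 0.00753). In addition, 8 of 10 neutrophil markers rose, with a list median of 1.07. The part of either list in the values of Tcirg1 and Snx10 was not tested.

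Atp6v0a2 measured 86.5, 111, 88.2, 92.4 and 85.6 CPM in unloaded vehicle and 74.4, 75.8, 64.7, 67.9 and 68.5 CPM in unloaded DEX libraries. The groups did not overlap, as for 3 of 27 tested members (Snx10, Atp6v0a2 and Atp6v1a; background 10.4% of genes). It fell by 0.39 ± 0.104 on the log2 scale (edgeR adjusted p = 0.0248). Of the ubiquitous subunits it was the only one of 14 to pass. The antisense gene 4930404A12Rik shares 663 of its 6726 exon bases. Atp6v1a had a log2 fold change of 0.34 ± 0.115 (edgeR adjusted p = 0.0631).

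The 3 calls for DEX in unloaded tibiae were lost in part of the fits that left out 1 library, in which the log2 fold changes stayed between 0.43 and 0.60 for Tcirg1, 0.34 and 0.48 for Snx10, and -0.42 and -0.31 for Atp6v0a2. The count of members called without both DEX libraries 4 was 0. The count was 1 without unloaded vehicle library 1 and 0 without unloaded vehicle library 5. It was 1 without unloaded DEX library 3, 0 without unloaded DEX library 4 and 1 without unloaded DEX library 5, and it was 7 without the unnumbered unloaded vehicle library. Atp6v0a2 was called in 7 of the 10 fits that left out 1 library, Snx10 in 5 and Tcirg1 in 3, with adjusted p up to 0.0878, 0.0652 and 0.118. The call of Atp6v0a2 was lost without vehicle library 5 or DEX library 3 or 4, and that of Snx10 without vehicle library 1, 4 or 5 or DEX library 4 or 5. That of Tcirg1 was kept only without vehicle library 4, the unnumbered vehicle library or DEX library 1. With the receptor background as a covariate 9 members were called, and all 3 stayed among them. The share of all genes called in these other fits is not given here, so the counts cannot be set against it.

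DEX in loaded tibiae changed 3 of 27 tested members (11.1%; edgeR, background 21.3% of 19780 genes): Atp6v0d2 and Atp6v0a2 fell and Atp6v0e2 rose. This share, too, was below that of all genes. Loaded vehicle libraries of Atp6v0d2 (53.0 to 102.0 CPM) lay above all loaded DEX libraries (28.7 to 51.5 CPM), and the gene fell by 0.66 ± 0.215 on the log2 scale (edgeR adjusted p = 0.0446). Tcirg1, with 85.9 to 115 CPM in vehicle and 49.4 to 111 CPM in DEX libraries, had a log2 fold change of -0.18 ± 0.179 (edgeR adjusted p = 0.473). It ran from -0.298 to -0.0452 with 1 library left out, and was 0.37 with the receptor background as a covariate. Slc4a2 had a log2 fold change of -0.35 ± 0.146 (edgeR adjusted p = 0.102), and 0.11 with that covariate. The receptor background does not overlap between loaded vehicle and loaded DEX libraries, so the fit with it cannot tell the background from DEX. In the same comparison 2 of 12 osteoclast markers and 3 of 10 macrophage markers fell and 9 of 10 neutrophil markers rose. Of 9 osteoblast markers, 6 fell with DEX in unloaded and 7 in loaded tibiae.

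Atp6v0a2 measured 98.5, 82.0, 81.7, 96.7 and 84.5 CPM in loaded vehicle and 65.1, 74.3, 64.3, 51.0 and 69.9 CPM in loaded DEX libraries, again without overlap. It fell by 0.41 ± 0.126 (edgeR adjusted p = 0.0367). The groups of 4 of 27 tested members did not overlap here (Atp6v0d2, Atp6v0a2, Atp6v1h and Atp6v0e2; background 16.5% of genes). The DEX comparisons in unloaded and loaded tibiae are tests on separate libraries but on the same mice, and Atp6v0a2 was the only member to pass in both in the tests reported here. Atp6v0e2 also passed in both, with opposite signs, in DESeq2, with at least 10 counts in every library and in a model of all 20 libraries. The interaction of treatment and loading did not pass for Atp6v0a2 (edgeR adjusted p = 0.87).

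**Figure D5:**
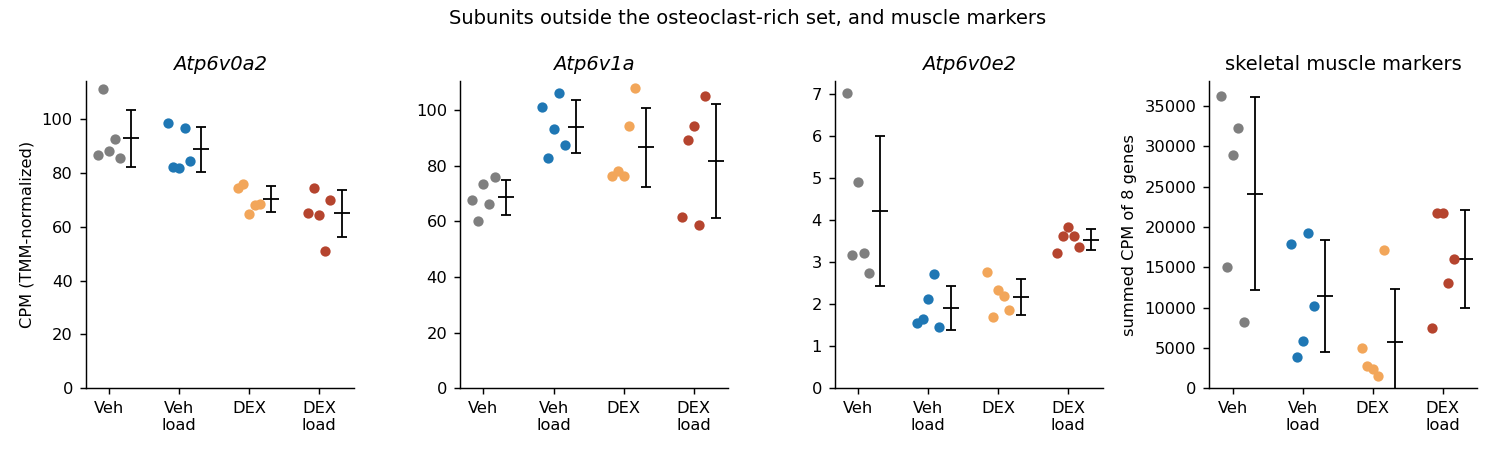
CPM of Atp6v0a2, Atp6v1a and Atp6v0e2, and the summed CPM of 8 skeletal muscle markers, with 1 point per library and the mean ± SD beside each group of 5 (the lower bar of the unloaded DEX muscle sum is cut at 0). Atp6v0a2 is lower in both DEX groups (51.0 to 75.8 CPM) than in both vehicle groups (81.7 to 111 CPM), and the medians of Atp6v0e2 and of the muscle sum are higher in unloaded vehicle and loaded DEX than in the other 2 groups.

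Atp6v0e2, a low-abundance isoform of the small V0 subunit e known from brain, showed another pattern. It measured 7.03, 3.18, 4.92, 3.22 and 2.75 CPM in unloaded vehicle, 1.55, 1.66, 2.13, 2.72 and 1.47 CPM in loaded vehicle, 2.77, 1.69, 2.35, 2.21 and 1.87 CPM in unloaded DEX and 3.22, 3.63, 3.85, 3.62 and 3.36 CPM in loaded DEX libraries. These rest on 15 to 53 counts per library. It rose by 0.94 ± 0.301 with DEX in loaded tibiae (edgeR adjusted p = 0.0424) and had a log2 fold change of -0.94 ± 0.299 with DEX in unloaded tibiae (adjusted p = 0.0523, called in 5 of 9 alternatives). For loading the values were -1.18 ± 0.314 under vehicle (adjusted p = 0.3) and 0.68 ± 0.266 under DEX (adjusted p = 0.593), and the interaction was 1.85 ± 0.388 (adjusted p = 0.107). The medians of the 8 skeletal muscle markers had the same signs, with log2 fold changes of -2.14 and 0.49 with DEX in unloaded and loaded tibiae, -1.08 and 1.41 with loading under vehicle and DEX, and 2.545 for the interaction. Of these markers 5 fell with DEX in unloaded and 1 rose in loaded tibiae, and 0 passed for loading or the interaction (edgeR). Their summed level was 8180 to 36200 CPM in unloaded vehicle, 3950 to 19200 in loaded vehicle, 1480 to 17200 in unloaded DEX and 7510 to 21800 in loaded DEX libraries. The part of muscle RNA in the values of Atp6v0e2 was not tested.

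The 3 calls for DEX in loaded tibiae were also lost in part of the fits that left out 1 library, in which the log2 fold changes stayed between -0.79 and -0.47 for Atp6v0d2, -0.49 and -0.35 for Atp6v0a2, and 0.81 and 1.07 for Atp6v0e2. The count was 0 without loaded vehicle library 1 and 1 without the unnumbered loaded vehicle library. It was 0 without loaded DEX library 1 and 1 without loaded DEX library 3 or loaded DEX library 5. Atp6v0d2 and Atp6v0a2 were each called in 5 of the 10 fits that left out 1 library and Atp6v0e2 in 2, with adjusted p up to 0.094, 0.0736 and 0.11. The call of Atp6v0d2 was lost without vehicle library 1 or 5 or DEX library 1, 4 or 5, and that of Atp6v0a2 without vehicle library 1, 5 or unnumbered or DEX library 1 or 3. That of Atp6v0e2 was kept only without vehicle library 5 or DEX library 4. With the receptor background as a covariate 0 members were called. The background does not overlap between these groups, so that fit cannot tell it from DEX. Without both DEX libraries 4, the calls were 2, Atp6v0a2 and Atp6v0e2. The remaining tissue-restricted and accessory subunits, including Atp6ap2, the prorenin receptor, passed in no comparison in the tests reported here. Atp6v1b1 did not pass the filter for either DEX comparison, but in a model of all 20 libraries its adjusted p was 0.0483 for DEX in loaded tibiae (edgeR).

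The genes of 3 lists around the pump were read beside the members. Over all 34 of their genes, edgeR called 9 with DEX in unloaded tibiae (background 15.2% of genes) and 5 in loaded tibiae (background 21.3%), and DESeq2 called 10 in either comparison. Both backgrounds are edgeR's, and that of DESeq2 is not given here. Of 20 lysosomal genes, 2 rose and 2 fell with DEX in unloaded tibiae and 3 fell with DEX in loaded tibiae. The tetraspanin Cd63 fell in both, by 0.57 ± 0.131 and 0.76 ± 0.157 on the log2 scale (edgeR adjusted p = 0.0134 and 0.0088), and the sialidase Neu1 rose by 0.71 ± 0.172 in unloaded tibiae (adjusted p = 0.0176). Of the 4 transcription factors of lysosomal genes, Tfec (0.68 ± 0.154, adjusted p = 0.0129) and Tfe3 (0.44 ± 0.13, adjusted p = 0.039) rose with DEX in unloaded tibiae, and none passed in loaded tibiae. Of 10 genes of V-ATPase assembly and regulation, 1 rose and 2 fell with DEX in unloaded tibiae, and 1 rose and 1 fell in loaded tibiae. Dmxl2, part of the RAVE-like complex that joins V1 to V0, rose with DEX by 0.97 ± 0.169 in unloaded and 0.64 ± 0.204 in loaded tibiae (adjusted p = 0.00431 and 0.0423). Its relative Dmxl1 fell by 0.36 ± 0.098 and 0.59 ± 0.148 (adjusted p = 0.03 and 0.0175), and Tmem9 was the other gene that fell in unloaded tibiae. Dmxl1 and Dmxl2 thus had log2 fold changes of opposite sign in both tibiae. Of the 9 alternatives of processing, Dmxl2 in unloaded tibiae was called in 9, and Neu1 and Cd63 in loaded tibiae in 8. Cd63 in unloaded tibiae and Tfec were called in 7 and Dmxl1 in loaded tibiae in 6. Tfe3 and Dmxl2 in loaded tibiae were called in 5, and Dmxl1 in unloaded tibiae in 4. Of the 10 fits that left out 1 library, the calls of Tfec, of Dmxl2 in unloaded tibiae and of Cd63 and Dmxl1 in loaded tibiae held in 10, that of Cd63 in unloaded tibiae in 9, and those of Neu1, Dmxl2 in loaded tibiae, Tfe3 and Dmxl1 in unloaded tibiae in 5, 3, 2 and 2. None of the 34 genes of these lists passed for loading or for the interaction in edgeR, and 1 passed in DESeq2, for loading under vehicle. In edgeR 4 of them had an unadjusted p under 0.05 for loading under vehicle (background 9.86% of genes in either direction), 1 for loading under DEX (background 7.14%) and 7 for the interaction (background 15.6%).

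Lysosomal genes often carry an E-box octamer, TCACGTGA, near their start site, to which TFEB and its relatives bind. RefSeq start regions of GRCm38.p6 (250 bases before to 50 after the start) were given for 23 of the 30 members. The core CACGTG, which reads the same on both strands and lies within the octamer, was present in 5 of the 23 and in 8.09% of 27025 genes. The octamer was present in 4 of the 23 and in 1.12% of all genes. The windows of these 4 members are shown because they share the octamer, which is in capitals.
Atp6v0d1: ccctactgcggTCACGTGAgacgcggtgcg
Atp6v1a: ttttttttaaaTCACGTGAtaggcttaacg
Clcn7: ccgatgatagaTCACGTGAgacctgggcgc
Atp6v0e: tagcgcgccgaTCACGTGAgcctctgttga

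These windows are chr8:105566050-105566079 on the minus strand for Atp6v0d1, chr16:44139373-44139402 on the minus strand for Atp6v1a, chr17:25133386-25133415 on the plus strand for Clcn7 and chr17:26676387-26676416 on the plus strand for Atp6v0e. In GENCODE M21 the octamer of Atp6v0d1 lies upstream of every annotated transcript of the gene and that of Atp6v1a in an intron of longer transcripts. The windows of Clcn7 and Atp6v0e overlap an annotated untranslated region, and the position of its exon in the transcript was not checked. None of the 4 genes was called in the tests reported here. With the receptor background as a covariate, Atp6v1a and Atp6v0d1 were called for DEX in unloaded tibiae. Atp6v1a was also called there with at least 10 counts in every library and, for loading under vehicle, in DESeq2. For loading under vehicle, the groups of Atp6v1a did not overlap, whereas those of Clcn7 (34.9 to 45.9 and 40.7 to 58.1 CPM), Atp6v0d1 (29.5 to 46.7 and 36.5 to 41.3 CPM) and Atp6v0e (33.4 to 63.0 and 33.2 to 64.9 CPM) did.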

How the data were processed

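RNA-seq was performed on 20 mouse tibia libraries (a stranded total-RNA kit for low input). The authors deposited expected counts for 54446 genes, made with STAR 2.7.10a and RSEM 1.2.28 on GRCm38 per the labels; the strand setting was not given in the sources used here. Values that were not whole (10.6% to 14.0% per library) were rounded. Genes were filtered with filterByExpr, normalized by TMM and tested with edgeR 4.0.16 (R 4.3.3), by the quasi-likelihood F test with Benjamini-Hochberg adjustment at 0.05, on the 2 groups compared or, for the interaction, on all 20 libraries; the SE is the fold change over the square root of F. Isoform ratios were tested by exact permutation. Loaded and unloaded tibiae came from the same mice, but the labels tie no number to a mouse, and same-number libraries correlated between -0.301 and 0.357, so libraries were treated as independent and p-values measure the spread between them. The vehicle libraries include 1 per group whose column number matches no title; these are called unnumbered. Alternatives were DESeq2 1.42.0, its size factors, 2 filters, a replicate block, all groups in the same model, the receptor background as a covariate and libraries left out. Values are given for members past the threshold and for the member with the lowest p where none passed. A panel (Atp6v0d2, Tcirg1, the 6 partners, Atp6v0d1 and Atp6v0a1) was fixed for every comparison. Its values are given for loading under vehicle and only in part for the other comparisons. Values of Atp6v1c1, Atp6v1d, Atp6v1e1, Atp6v1f and Atp6v0e were added after they were seen. The members and all lists (markers of osteoclasts, macrophages, erythroid cells, neutrophils, osteoblasts and skeletal muscle, lysosomal genes, their transcription factors, and V-ATPase assembly) were chosen with earlier results of these data known. Code was tested on simulated data.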

Additional observations from a re-analysis of the deposited data

Results flagged for a closer look

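Within each group of 5 libraries, 1 library stood far from the rest in 7 of the 64 gene or ratio values examined by group, where chance gives about 1 in 20. These values were not independent, since the ratios were made from genes also examined and genes shared libraries. The 7 thus cannot be weighed against that rate. Loaded vehicle library 5 accounted for 4 of them. Its Atp6v0d2 was 102.0 CPM against 53.0 to 60.7 in the others, its Ostm1 was 51.0 against 31.7 to 36.8, its Atp6v0d1 was 36.5 against 40.1 to 41.3, and its log2 ratio of Atp6v0d2 to Atp6v0d1 was 1.49 against 0.403 to 0.571. The summed osteoclast markers of that library were also the highest of its group (2192 CPM against 1697 to 2026), and their part in these values was not tested. In loaded vehicle library 1, Car2 was 295 CPM against 491 to 566. In unloaded vehicle library 2, Atp6v0a2 was 111 CPM against 85.6 to 92.4. In unloaded DEX library 5, Snx10 was 56.4 CPM against 46.3 to 48.2.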

How the results depend on the processing

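The number of members past the threshold depended on the processing. For DEX in unloaded tibiae it was 3, and 5 with DESeq2, 1 with no filter on low counts, 6 with at least 10 counts in every library, 0 without both DEX libraries 4 and 9 with the receptor background as a covariate. With no filter the member called was Atp6v0e2, so Tcirg1, Snx10 and Atp6v0a2 all lost their calls, and Tcirg1 also lost it with all 4 groups in the same model. For DEX in loaded tibiae it was 3, and 1 with no filter, 1 with at least 10 counts in every library, 5 with all 4 groups in the same model and 0 with the covariate. Here Atp6v0d2 was the member called with no filter and Atp6v0e2 that with at least 10 counts. For loading under vehicle and for the interaction it was 0, and 1 with DESeq2. With 1 library left out it ran from 0 to 7 for DEX in unloaded tibiae, from 0 to 4 for DEX in loaded tibiae, from 0 to 1 for the interaction, and was 0 for both loading comparisons. With a replicate block on the libraries that share a number, the count was 0 for DEX in unloaded and 1 for DEX in loaded tibiae. The same libraries without the block, an alternative added after the data were seen, gave 1 and 0. In these comparisons the block joins a vehicle and a DEX library of the same number, which came from different mice. Correlations of same-number libraries were computed only between loaded and unloaded libraries within a treatment, so they do not cover these pairs. The share of all genes called in these other fits is not given here, so the members' counts cannot be set against it. The cause of these shifts was not tested. None of the 8 isoform ratios passed in any alternative or with a library left out, which says nothing of their stability: the smallest exact p of 4 against 5 libraries, 0.0159, gives a single ratio an adjusted p of 0.127, and the paired test of 4 or 5 pairs could not reach 0.05. The log2 fold change of Atp6v0d2 for loading under DEX turned to 0.0172 with at least 10 counts in every library, 0.0581 without both DEX libraries 4 and 0.181 with the covariate, and ran from -0.149 to 0.0756 with 1 library left out. For DEX in unloaded tibiae it turned to 0.0298 with the replicate block, 0.0258 for the same libraries without it and 0.0135 without both DEX libraries 4, and ran from -0.142 to 0.0528. With the covariate, DEX in loaded tibiae gave 0.373 for Tcirg1 and 0.111 for Slc4a2. In that comparison the covariate does not overlap between the groups. That fit, including its count of 0 members, thus cannot tell the background from DEX. Of the other alternatives for single members, 243 kept direction and side of the threshold, 25 lost the call and 12 gained it. Counts of the tissue-restricted subunits were low, and whether deeper libraries would change their calls was not tested.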
